A study of Mus musculus with 19 samples.

Results

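Cytosolic ribosomal protein genes encode the proteins of the ribosome outside mitochondria. The members were taken by name from the expression table, as the entries named Rpl or Rps with a number and an optional a, l, x or p-number suffix, together with Rplp0, Rplp1, Rplp2 and Rpsa. Names ending in a pseudogene tag and the Rps6k kinases were left out. This gave 80 of 38424 entries, of which 49 were large-subunit names (Rpl) and 31 small-subunit names (Rps). Each ribosome carries a set of these proteins, and most of their genes are highly expressed in growing cells. Many of their mRNAs begin with a 5′ terminal oligopyrimidine (TOP) sequence, through which mTOR signalling sets their translation. A few members have paralogs that replace them in certain tissues, such as Rpl3l in muscle and Rpl10l and Rpl39l in the testis.

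The data were 19 poly(A) RNA-seq libraries of mouse embryonic stem cells carrying short hairpins, in a study of long non-coding RNAs (lncRNAs) transcribed divergently from developmental genes. In 12 libraries the cells had differentiated in serum medium without LIF, the cytokine that keeps them undifferentiated. The line CJ7 gave 2 shEvx1as libraries and their control at day 4, and the line CJ9 gave 2 shEVX1 libraries and their control at day 4. Also from CJ9 came shLhx1os with its control at day 6 (1 library each) and shFendrr with its controls at day 5 (2 libraries each). Both lines are labelled with the strain 129S4/SvJae. The other 7 libraries came from 46c cells kept for 4 days in serum-free N2B27 medium with 5 nM retinoic acid. They were 2 controls, 2 shNr2f1as, 1 shSox21os and 2 shPou3f3os libraries, so the 3 retinoic acid knockdowns share their controls. All controls carry a control hairpin, and no library without a hairpin was analysed here. Nothing in the labels says whether the numbered libraries are separate cultures or hairpins, so the p-values below measure spread among these libraries only, which may be technical. Line, medium, serum and retinoic acid differ together between the 2 cultures and cannot be told apart. Day differs in part as well, since all retinoic acid libraries are of day 4 and the LIF-withdrawal libraries of days 4, 5 and 6.

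Values are FPKM (fragment density per kilobase of transcript, corrected for library size), and library totals lay between 559050 and 655315 FPKM. Read counts were not used here, so the depth behind each value is unknown. Where the target had a named entry, the lncRNA entry for Evx1as, 5730457N03Rik, stood at 0.354 and 0.29 FPKM after its knockdown and 1.66 FPKM in the control, and Evx1 at 30.2 and 37 FPKM in shEVX1 and 53.9 FPKM in its control. Fendrr was at 0.358 and 0.077 FPKM against 1.1 and 1.49 FPKM. The target entry 1500016L03Rik was at 0.088 FPKM in the Lhx1os control and 0 FPKM in shLhx1os, too low to judge a knockdown. The Pou3f3os entry, 2610017I09Rik, was at 2.4 and 4.13 FPKM where the controls had 5.2 and 1.98 FPKM, so these libraries overlapped. The summed level of 8 neural markers was 376 to 453 FPKM in the retinoic acid controls and 9.04 to 69.9 FPKM in the LIF-withdrawal controls. For 9 primitive streak and mesoderm markers the ranges were 4.75 to 5.13 and 238 to 597 FPKM. The 2 retinoic acid controls were unlike in pluripotency genes, with Pou5f1 at 43.5 FPKM in the first and 282 FPKM in the second. Nanog was at 8.65 and 59.1 FPKM.

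Promoter sequence is shown for 4 members that carry the main pattern below. Between the LIF-withdrawal controls and the retinoic acid controls, Rps4x, Rps25 and Rps15a had the largest log2 falls of the 78 members fitted and Rpl13a the largest rise. Rps4x and Rps25 were singled out from these libraries, so no test is given for them in this contrast. Each line gives the 150 bases before the RefSeq start of the gene on its own strand, from build GRCm38.p6. The windows are chrX:102189392-102189541 (minus strand) for Rps4x, chr9:44407564-44407713 (plus) for Rps25, chr7:118116148-118116297 (minus) for Rps15a and chr7:45128746-45128895 (minus) for Rpl13a. Capitals mark matches on either strand to CCGGAA (the ETS core), GCCATNTT (YY1) or GGGCGG (SP1), and no matches overlapped in these windows.
Rps4x: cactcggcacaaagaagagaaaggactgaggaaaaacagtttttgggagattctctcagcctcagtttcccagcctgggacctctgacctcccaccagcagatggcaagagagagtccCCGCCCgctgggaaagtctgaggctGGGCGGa
Rps25: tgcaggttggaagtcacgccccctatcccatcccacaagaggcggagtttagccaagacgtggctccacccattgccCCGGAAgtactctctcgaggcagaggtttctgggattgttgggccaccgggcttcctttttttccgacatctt
Rps15a: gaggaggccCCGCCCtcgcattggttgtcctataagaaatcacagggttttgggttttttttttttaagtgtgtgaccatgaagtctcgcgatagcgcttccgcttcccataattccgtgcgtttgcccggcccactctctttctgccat
Rpl13a: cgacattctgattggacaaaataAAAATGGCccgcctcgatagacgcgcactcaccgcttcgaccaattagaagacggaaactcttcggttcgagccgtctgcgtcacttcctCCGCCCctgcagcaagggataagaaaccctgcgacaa
The Rps4x window held 2 GGGCGG matches, the Rps25 window 1 CCGGAA match and the Rps15a window 1 GGGCGG match. The Rpl13a window held 1 GCCATNTT and 1 GGGCGG match. RefSeq promoters were matched for 60 of the 80 members, with 72 starts. CCGGAA was present in 33.3% of these windows and in 9.2% of all 32851 promoter windows of this length, GCCATNTT in 12.5% and 2.2%, and GGGCGG in 37.5% and 28.6%. A match is a string of letters and was not tested as a binding site.

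Together the 80 members held between 15.3% and 27.4% of a library's summed FPKM, with a median of 23.7%. In the 5 LIF-withdrawal controls the share was 21.1% to 23.5%, and in the 7 LIF-withdrawal knockdown libraries 15.3% to 25.5%. The retinoic acid controls stood at 24.5% and 27.4%, and the retinoic acid knockdown libraries at 24.2% to 27.1%. Both retinoic acid controls thus lay above all 5 LIF-withdrawal controls, whereas the 2 sets of knockdown libraries overlapped. In these bulk libraries, fewer cells of a type and less RNA per cell cannot be told apart.

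**Figure D1:**
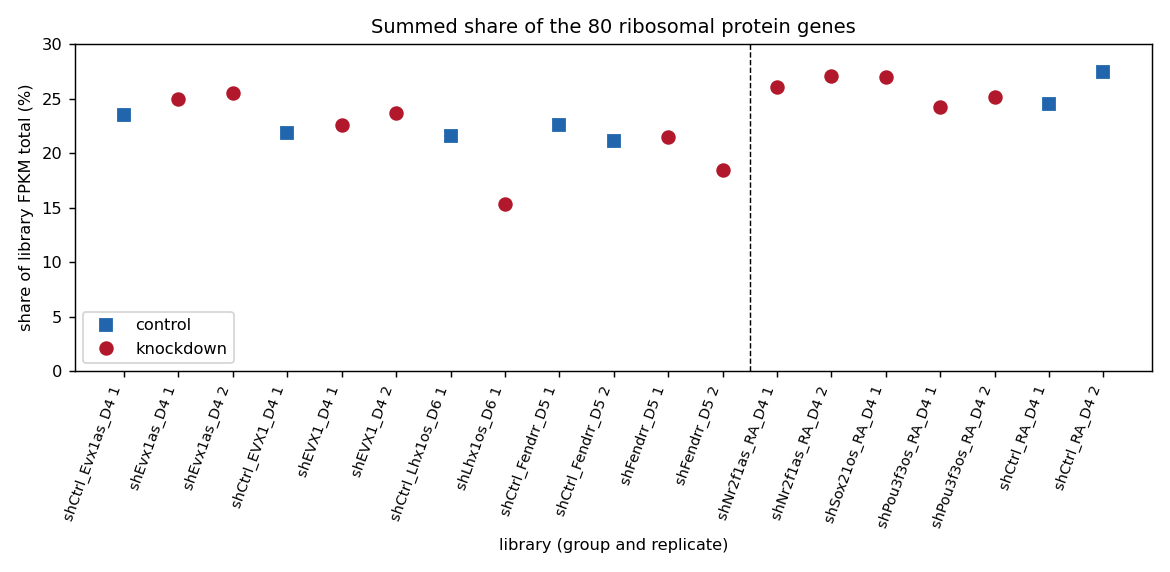
Share of each library's summed FPKM held by the 80 ribosomal protein genes, in percent, for 19 libraries, with controls as squares and knockdowns as circles and the retinoic acid libraries right of the dashed line. The shLhx1os library is lowest at 15.3% and retinoic acid control 2 highest at 27.4%.

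Levels differed widely between members, on the FPKM scale that corrects for length. The median over libraries was at least 1000 FPKM for 56 members, 100 to 1000 FPKM for 17, 1 to 100 FPKM for 5 and under 1 FPKM for 2. The highest medians were those of the stalk protein gene Rplp1 (6031 FPKM), Rpl41 (5722 FPKM), Rps26 (5198 FPKM), Rps12 (4650 FPKM) and Rps28 (4595 FPKM). The median small-subunit member was at 1965 FPKM and the median large-subunit member at 1421 FPKM.

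The 5 lowest medians belonged to Rpl3l (0.118 FPKM), Rps27 (0.165 FPKM), Rpl39l (1.65 FPKM), Rpl10l (3.65 FPKM) and Rps15a (23.4 FPKM). Rpl3l and Rps27 did not reach 1 FPKM in 2 libraries and were not tested, which left 78 members. Rps27, a universal small-subunit protein, was listed at 0.0718 to 0.268 FPKM, while its paralog Rps27l was at 80.3 to 525 FPKM. Of the 80 members, 77 share at least one 50-base stretch with a transcript of another gene, and the median member shares 34% of its stretches (46.2% for Rps27, 72.2% for Rps4x, 22.8% for Rps25 and 5.3% for Rps15a). These percentages run over all coding transcripts of a member, so a long transcript can lower them. The longest was 5179 bases for Rps15a, which shares a stretch with 39 genes, and 1280 bases for Rps25, which does so with 8. A low percentage therefore does not mean that few reads are shared. How the authors assigned reads of shared stretches was not found in the sources. Rpl34, at a median of 23.8 FPKM, overlaps the entry Rpl34-ps1, which was at 1492 to 3380 FPKM, and their reads cannot be told apart.

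Each member was set against the median member of its library on the log2(FPKM + 1) scale, and the SD of this difference over the 19 libraries was taken. The median SD of the 78 members was 0.222, with 32 members under 0.2 and 11 over 0.5. The smallest SDs were those of Rpl21 (0.095), Rpl32 (0.095), Rpl3 (0.098) and Rpl4 (0.098), all of the large subunit. Rpl21 lay between 285 FPKM (shLhx1os) and 524 FPKM (shSox21os). The largest SDs were those of Rpl39 (2.19), Rps4x (1.81), Rps25 (1.57), Rpl39l (1.48), Rps15a (1.27) and Rpl10l (1.17).

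Rps4x, the X-linked copy of a small-subunit protein gene, had the largest log2 fall from the LIF-withdrawal controls to the retinoic acid controls. Its entry lies on chromosome X from 99380282 to 99383710, in the mm9-type positions of the table. In the LIF-withdrawal controls it was at 574 (Evx1as), 524 (EVX1), 606 (Lhx1os), 1208 and 1231 FPKM (Fendrr). In the retinoic acid controls it was at 27.2 and 15.6 FPKM. In the retinoic acid knockdown libraries it was at 370 and 114 FPKM (shNr2f1as), 325 FPKM (shSox21os) and 241 and 334 FPKM (shPou3f3os). The 3 sets did not overlap: the LIF-withdrawal libraries were highest, the retinoic acid knockdowns intermediate and the retinoic acid controls lowest. Among the 80 members, Rps4x ranked 43rd to 66th by level in the LIF-withdrawal libraries and 75th in both retinoic acid controls. The entry Rps4y2, a second gene of the Rps4 family chosen after its values were seen, was at 205 and 373 FPKM in the retinoic acid controls, 148 to 277 FPKM in the retinoic acid knockdowns and 250 to 495 FPKM in the LIF-withdrawal libraries. It was thus highest among the retinoic acid libraries in control 2, the library where Rps4x was lowest.

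Rps25, a small-subunit protein that several viral internal ribosome entry sites depend on, followed the same order (chromosome 9, 44215797 to 44218489). It was at 1240, 1140, 1057, 1340 and 1203 FPKM in the LIF-withdrawal controls, taken in the same order as Rps4x, and at 131 and 20.9 FPKM in the retinoic acid controls. In the retinoic acid knockdowns it was at 579 and 266 FPKM (shNr2f1as), 620 FPKM (shSox21os) and 479 and 593 FPKM (shPou3f3os). Again the 3 sets did not overlap, and control 2 was the lowest library of all 19. On the log2(FPKM + 1) scale, the difference between the 2 retinoic acid controls and the 5 LIF-withdrawal controls was -4.99 ± 0.36 (SE) for Rps4x and -4.45 ± 0.52 for Rps25. These 2 genes were singled out from these libraries, so the differences are a description and carry no test. The Rps25 difference was -5.74 without retinoic acid control 1 and -3.15 without control 2.

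**Figure D2:**
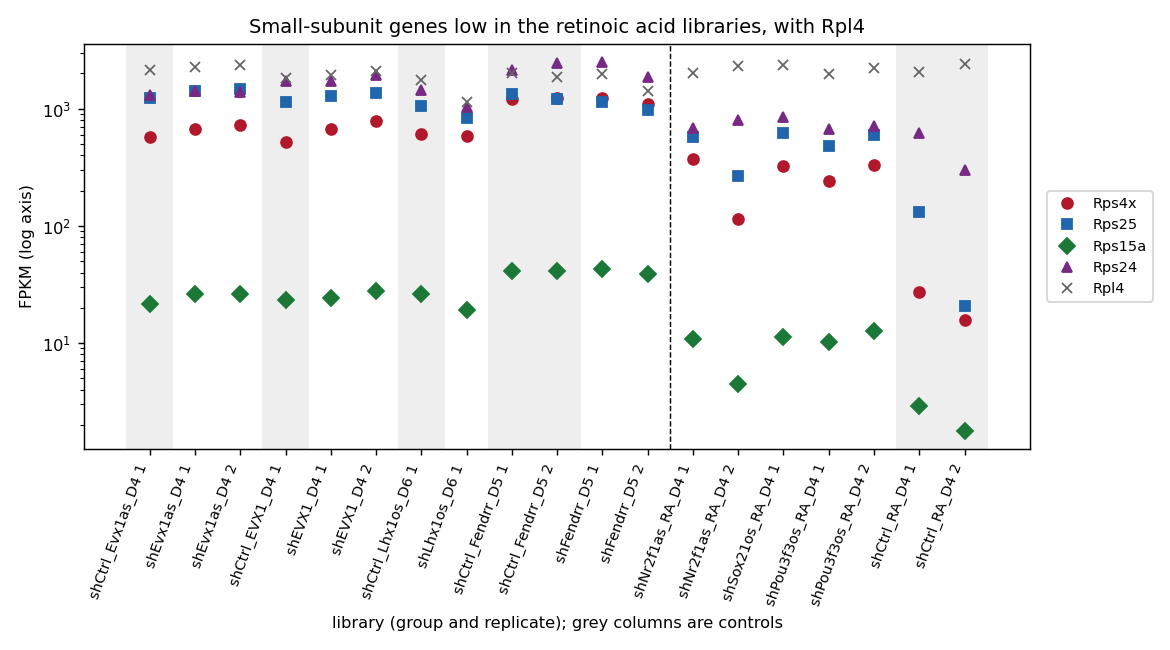
FPKM on a log axis of Rps4x, Rps25, Rps15a and Rps24, with Rpl4 for comparison, in 19 libraries, with controls in grey columns and the retinoic acid libraries right of the dashed line. Rps4x is at 524 FPKM or more in the LIF-withdrawal libraries and at 27.2 and 15.6 FPKM in the retinoic acid controls, while Rpl4 stays between 1148 and 2396 FPKM in all libraries.

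Over all members, the retinoic acid controls were compared with the LIF-withdrawal controls by limma, with a gene called where its adjusted p (Benjamini-Hochberg over all 14942 entries tested) was under 0.05. Of the 76 members other than Rps4x and Rps25, 36 rose and 17 fell. Over all entries, 30.3% were called higher and 29.5% lower. The median change of the 78 members was 0.24, and that of all entries 0.00. The number that rose was 24 without retinoic acid control 2, 37 without control 1, and 23 when only the groups compared were fitted. The number that fell was 11 without control 1.

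The largest tested fall was that of Rps15a, a small-subunit protein (chromosome 7, 125247890 to 125259661). It was at 21.6, 23.4, 26.3, 40.9 and 41.6 FPKM in the LIF-withdrawal controls and at 2.92 and 1.79 FPKM in the retinoic acid controls (a log2 change of -3.10 ± 0.24, limma adjusted p = 2.32e-06). Rps24, a small-subunit protein mutated in some Diamond-Blackfan anaemia families, was at 1306, 1714, 1458, 2159 and 2480 FPKM against 619 and 300 FPKM (-1.94 ± 0.22, adjusted p = 3.22e-05). Rpl7 of the large subunit was at 899, 1270, 1146, 2253 and 2299 FPKM against 549 and 323 FPKM (-1.64 ± 0.18, adjusted p = 1.98e-05). In all 3 genes both retinoic acid controls lay below every LIF-withdrawal control, and control 2 was the lower one.

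Falls of smaller size were called for Rpl10 (-0.69) and Rps16 (-0.68), whose groups did not overlap. Rpl10 protein joins the large subunit last and opens it for joining with the small one. The paralogs Rpl39l (-1.45) and Rpl10l (-0.80) were also called lower. Their groups overlapped, and neither call held without the CJ7 control (Rpl39l -0.82, adjusted p = 0.0516; Rpl10l -0.40, adjusted p = 0.29). Rpl10l also lost its call without retinoic acid control 1 (-0.07, adjusted p = 0.779).

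The members that rose did so by less than 1 log2 unit. The 8 largest rises were those of Rpl13a (0.85 ± 0.12, adjusted p = 0.000156), Rps18 (0.77), Rps28 (0.74), Rpl38 (0.71), Rpl7a (0.71), the stalk protein gene Rplp1 (0.70), Rpl28 (0.68) and Rpl37 (0.66). In each of them both retinoic acid controls lay above all 5 LIF-withdrawal controls. Rpl13a was at 1931 and 2459 FPKM against 1000 to 1347 FPKM. Rpl38, a protein that the translation of certain Hox mRNAs depends on, was at 509 and 603 FPKM against 235 to 434 FPKM.

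The same culture contrast was made between knockdown libraries, which share no library with the controls. The 5 retinoic acid knockdown libraries were compared with the 7 LIF-withdrawal ones. Of 78 members, 50 rose and 14 fell, beside 36.1% of all entries called higher and 33.0% lower. In 10 members all 5 retinoic acid knockdown libraries lay above all 7 others, and in 8 members all lay below. Most of the called rises thus came with overlapping ranges. The median change was 0.36, beside 0.02 for all entries. With the libraries rescaled to the same median member, 26 members rose and 26 fell, and the median of all entries moved to -0.25. This rescaling removes any shift that the members share, so the nearer balance of rises and falls follows in part from it. Against the day 4 LIF-withdrawal knockdowns alone, 23 rose and 23 fell and the median was 0.04, and without shLhx1os the median was 0.19.

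Rps4x and Rps25 were tested here, since the control libraries that singled them out are not compared in this contrast. They were still known from earlier results of these data, and the shared model takes part of its spread from the retinoic acid controls. Rps4x was at 277 ± 102 FPKM (SD, n = 5) in the retinoic acid knockdowns against 825 ± 242 FPKM (n = 7), a fall of log2 -1.52 ± 0.26 (limma adjusted p = 0.000321). Rps25 was at 508 ± 145 FPKM (n = 5) against 1217 ± 239 FPKM (n = 7), a fall of log2 -1.17 ± 0.38 (limma adjusted p = 0.017). The SD and n run over libraries of different knockdowns. The limma p instead rests on the spread within groups of 2 libraries, so it does not measure the spread between experiments. All 5 retinoic acid knockdown libraries lay below all 7 others in both genes. With no filter on low values the adjusted p of Rps25 was 0.0592.

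Other members fell as well. Rps15a fell by 1.39, Rps24 by 1.03 and Rps27a, encoded as a fusion with ubiquitin, by 0.81 on the log2 scale, and their groups did not overlap. Rps27l, a paralog known as a p53 target, fell by 1.4 ± 0.10 (limma adjusted p = 4.17e-07), and Rpl39l by 2.12 and Rpl10l by 1.61. Rpl39l and Rpl10l were highest in the CJ7 shEvx1as libraries, which enlarges their falls. Rpl7 fell by 0.78. The 8 largest rises were those of Rpl13a (0.97), Rpl38 (0.91), Rps18 (0.88), Rpl28 (0.81), Rps28 (0.79), Rps9 (0.74), Rplp2 (0.74) and Rpl24 (0.71). Of these, 5 were also among the 8 largest rises between the controls, and the ranges of Rps28 overlapped between the knockdown libraries.

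**Figure D3:**
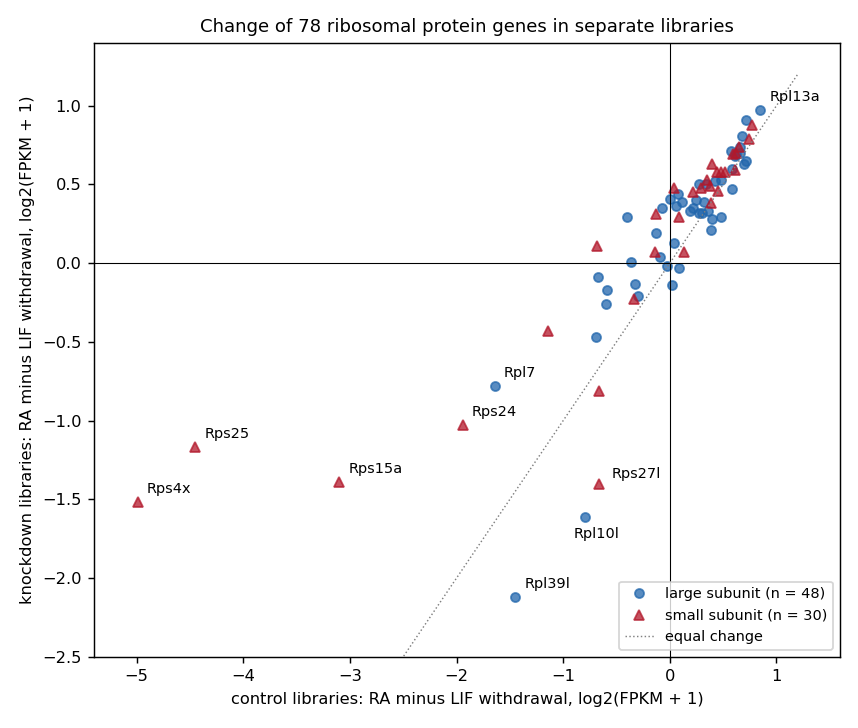
Log2 change of each of 78 members between retinoic acid and LIF-withdrawal libraries on the log2(FPKM + 1) scale, in controls (horizontal axis) and in knockdown libraries (vertical axis), with the dotted line marking equal change. Rps4x, Rps25 and Rps15a lie far to the left of the line, at -4.99, -4.45 and -3.10 in the controls against -1.52, -1.17 and -1.39 in the knockdowns.

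Within the retinoic acid culture each knockdown was compared with the 2 shared controls, and the 3 comparisons are therefore not independent. Rps4x was higher by log2 3.26 ± 0.42 in shNr2f1as, 3.91 ± 0.52 in shSox21os and 3.72 ± 0.42 in shPou3f3os, and Rps25 by 2.87 ± 0.62, 3.53 ± 0.76 and 3.31 ± 0.62, given as a description. Without shNr2f1as replicate 1 the Rps4x value was 2.41 and without replicate 2 it was 4.1. Without retinoic acid control 2 the Rps25 values were 1.57, 2.23 and 2.01, and without control 1 they were 4.17, 4.83 and 4.61.

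Among the other 76 members, no gene was called in shNr2f1as (0.422% of all entries called higher and 0.254% lower) or in shSox21os (0.0468% higher and 0.0201% lower). This was limma's test, and without adjustment 8 and 10 of them (10.5% and 13.2%) had a p under 0.05, beside 18.1% and 11.4% of all entries. In shPou3f3os, 2 rose and none fell, beside 1.6% of all entries called higher and 0.716% lower. These were Rps15a, at 10.2 and 12.6 FPKM where the controls had 2.92 and 1.79 FPKM (a log2 change of 1.90 ± 0.29, adjusted p = 0.0243), and Rpl7, at 718 and 914 FPKM where they had 549 and 323 FPKM (0.94 ± 0.21, adjusted p = 0.0463). Neither call held when only the 2 groups were fitted (adjusted p = 0.136 and 0.185). Without retinoic acid control 1, 5 members were called higher and 7 lower in shPou3f3os, and without control 2 none.

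Rps15a lay above both controls in all 5 knockdown libraries, at 10.9 and 4.48 FPKM in shNr2f1as (log2 change 1.29, adjusted p = 0.0613) and 11.2 FPKM in shSox21os (1.89, adjusted p = 0.107). Rps24 was at 670 to 844 FPKM in the 5 knockdown libraries, above both controls (adjusted p = 0.161, 0.31 and 0.173). The median change over 78 members was 0.01 in shNr2f1as, 0.06 in shSox21os and -0.14 in shPou3f3os.

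In shEvx1as and shEVX1 most members differed little from the control, and mostly in one direction. In shEvx1as, 69 of 78 members were estimated higher, with a median change of 0.12 beside 0.05 for all entries. In shEVX1, 77 were estimated higher, with a median of 0.11. No member was called in either (0.00669% of all entries in each), and 2 and 0 had an unadjusted p under 0.05, beside 4.38% and 3.32% of all entries. Rps4x stood at 666 and 732 FPKM in shEvx1as and 574 FPKM in its control, and at 675 and 790 FPKM in shEVX1 against 524 FPKM (adjusted p = 1 in both). Each of these experiments rests on 1 control library.

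In shFendrr, 73 of 78 members were estimated lower, with a median of -0.16, and none was called (0.147% of all entries), while 9 had an unadjusted p under 0.05, beside 7.03% of all entries. The median was -0.31 without shFendrr replicate 1. Replicate 2 was the lower library, with a member share of 18.4% against 21.5% in replicate 1. The smallest adjusted p, 0.68, belonged to Rpl11, which with Rpl5 binds 5S rRNA. Rpl11 was at 1586 and 1436 FPKM against 2303 and 1774 FPKM. Rps4x was at 1234 and 1091 FPKM against 1208 and 1231 FPKM (adjusted p = 0.992), so its libraries overlapped.

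The shLhx1os experiment had 1 library per arm, and no test was made. There 75 of 78 members were lower and 3 higher, with a median log2 change of -0.56 beside -0.06 for all entries. Past a fold of 1.5 there were 34 lower and 1 higher, beside 14.7% of all entries lower and 10.7% higher. The largest differences were those of Rpl17 (2323 FPKM in the control and 1016 FPKM in shLhx1os), Rpl38 (345.7 and 168.1 FPKM) and Rps15 (2353 and 1253 FPKM). The 3 higher members were Rps27l (112.6 and 190.6 FPKM), Rpl10l (5.05 and 7.57 FPKM) and Rpl34 (22.5 and 23.8 FPKM). Rps4x was at 606 and 590 FPKM, and its order among the members moved from 66th to 59th. The shLhx1os library also had the lowest FPKM total, 559050.

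Some members differed between experiments. Rpl39 of the large subunit was at 203 and 502 FPKM in the day 5 controls and 462 and 489 FPKM in shFendrr. It was at 5.35 to 11.8 FPKM in the 8 other LIF-withdrawal libraries and at 21.5 to 45.3 FPKM in the retinoic acid libraries. The 4 day 5 libraries thus stood above all 15 others, and the differences between experiments were not tested. Rps27l was also highest at day 5, at 369 to 525 FPKM, against 113 to 220 FPKM in the other LIF-withdrawal libraries. Rpl22l1, a paralog of Rpl22 whose name is outside the rule, was at 18.1 to 29.9 FPKM at day 5 and at most 3.9 FPKM elsewhere.

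Rpl39l and Rpl10l, the paralogs known from the testis, were highest in the CJ7 libraries of the Evx1as experiment. Rpl39l was at 17.6 FPKM in that control and 32.5 and 24 FPKM in shEvx1as, against at most 3.71 FPKM in the other 16 libraries. Rpl10l was at 14.9, 26.1 and 27.5 FPKM there, against at most 7.57 FPKM elsewhere. The parent gene Rpl10 was at 1501 FPKM in the CJ7 control and 1380 to 2181 FPKM in the 4 CJ9 controls.

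**Figure D4:**
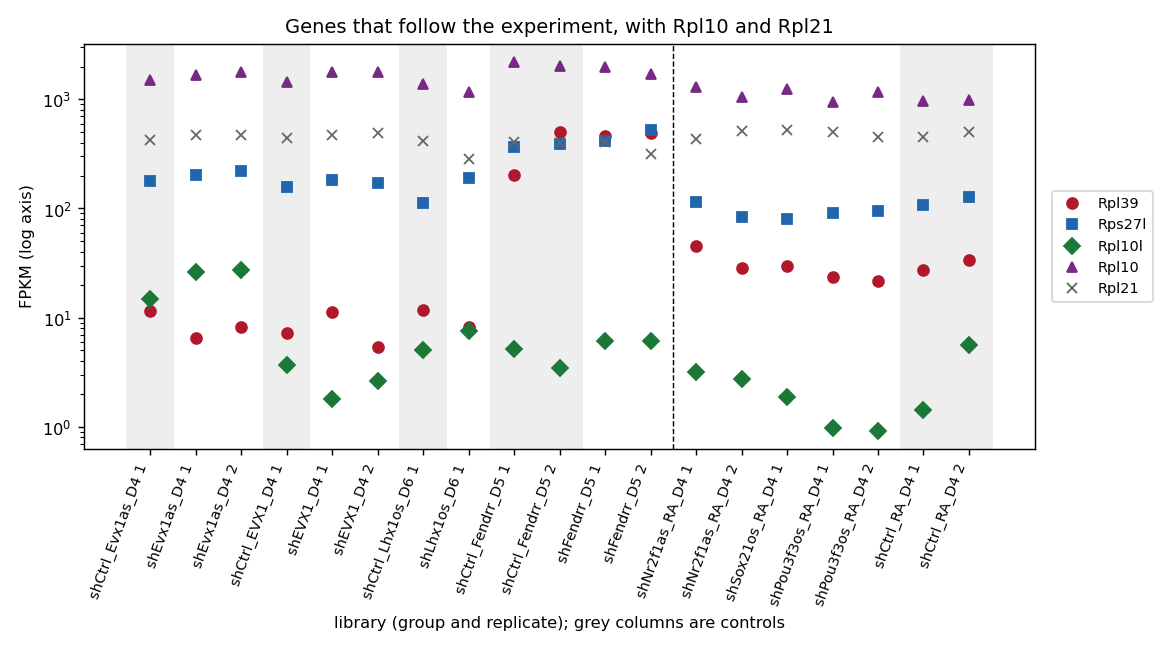
FPKM on a log axis of Rpl39, Rps27l and Rpl10l, with Rpl10 and Rpl21 for comparison, in 19 libraries, with controls in grey columns. Rpl39 stands at 203 to 502 FPKM in the 4 day 5 libraries, and Rpl10l at 14.9 to 27.5 FPKM in the 3 CJ7 libraries.

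Some ribosomal proteins have names outside the rule. Fau, which encodes a small-subunit protein fused to a ubiquitin-like peptide, rose in the retinoic acid controls (1939 and 2530 FPKM against 1086 to 1792 FPKM, log2 change 0.64, limma adjusted p = 0.000839). Gnb2l1, which encodes RACK1 of the small subunit, was at 1537 and 1776 FPKM against 1266 to 2015 FPKM (adjusted p = 0.658).

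Genes that build or serve the ribosome were counted from lists. The shares of all entries called are those given above, 30.3% higher and 29.5% lower between the controls and 36.1% and 33.0% between the knockdown libraries. Between the controls, 17 of 63 ribosome biogenesis and RNA polymerase I genes rose (27.0%) and 19 fell (30.2%), with a median of -0.02, which is near the background. Between the knockdown libraries 8 rose (12.7%) and 39 fell (61.9%), with a median of -0.33. Nop10, a core protein of H/ACA small nucleolar ribonucleoproteins, was at 1.52 and 1.87 FPKM in the retinoic acid controls against 71.1 to 179 FPKM (-5.38 ± 0.54, adjusted p = 1.21e-05). Dkc1, the pseudouridine synthase of the same particle, was at 4.39 and 9.32 FPKM against 17.5 to 36.5 FPKM (-1.87), whereas the box C/D protein gene Nop58 was at 165 and 175 FPKM against 51.1 to 112 FPKM (1.2).

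Of 19 elongation factor and other TOP genes, 4 rose (21.1%) and 6 fell (31.6%) between the controls, and 9 rose (47.4%) and 3 fell (15.8%) between the knockdowns. Eef1a1, which delivers aminoacyl-tRNA to the ribosome, was at 1198 and 2893 FPKM in the retinoic acid controls against 5560 to 7130 FPKM (-1.74). Npm1, a nucleolar chaperone, was at 127 and 283 FPKM against 613 to 1210 FPKM (-2.11). In both genes control 2 was the lower library, as in Rps25. In shPou3f3os, 2 genes of this list rose and 1 fell, and Npm1 was one that rose, to 474 and 535 FPKM (1.4, adjusted p = 0.0409). Of the 63 biogenesis genes, 1 rose and 7 fell there (1.59% and 11.1%, beside 1.6% and 0.716% of all entries), with a median of -0.18. The rise was that of Dkc1, to 24.9 and 25.4 FPKM (1.81, adjusted p = 0.0258). The falls included Nolc1, at 94.2 and 98.7 FPKM where the controls had 151 and 172 FPKM (-0.74, adjusted p = 0.0258). Of the 76 mitochondrial ribosomal protein genes, none rose and 5 fell in shPou3f3os (6.58%), with a median of -0.22. In the same comparison 2 of 35 initiation factors rose and none fell, and none of 27 genes of MYC and mTOR control rose and 3 fell. The falls were not limited to shPou3f3os. In shNr2f1as, with the same controls, 3 mitochondrial ribosomal protein genes (3.95%, median -0.17) and 1 biogenesis gene (1.59%, median -0.2) fell, beside 0.254% of all entries. None of either list rose there. In shSox21os none of either list was called, with medians of -0.12 and -0.11.

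Of 35 translation initiation factors, 13 rose and 13 fell (37.1% each) between the controls, and 9 rose (25.7%) and 18 fell (51.4%) between the knockdowns, with Eif2a (-2.21) and Eif4a2 (-2.13) the largest falls between the controls. Of 76 mitochondrial ribosomal protein genes, 28 rose (36.8%) and 25 fell (32.9%) between the controls, and 18 rose (23.7%) and 27 fell (35.5%) between the knockdowns. Of 11 small nucleolar RNA host genes, none rose and 4 fell (36.4%) between the controls, and 2 rose (18.2%) and 7 fell (63.6%) between the knockdowns. Of 27 genes of MYC and mTOR control, 9 rose (33.3%) and 4 fell (14.8%) between the controls, and 12 rose (44.4%) and 7 fell (25.9%) between the knockdowns. This list mixes activators such as Mtor with inhibitors such as Tsc1. Its counts, here and in shPou3f3os, therefore give no direction for the pathway. Myc was at 7.06 to 11.1 FPKM in the retinoic acid knockdowns against 26.7 to 45.1 FPKM in the LIF-withdrawal knockdowns (-2.00). In the Evx1as and EVX1 controls it was at 36.5 and 36.7 FPKM, and in the Fendrr controls at 29.7 and 36.1 FPKM. The retinoic acid controls overlapped this range. Myc was lower in all 3 retinoic acid knockdowns than in their controls, which held 25.1 and 35.2 FPKM (-1.76, -1.93 and -1.61, limma adjusted p = 0.016, 0.0359 and 0.0126). None of these lists had a called gene in shEvx1as, shEVX1 or shFendrr.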

How the data were processed

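The authors deposited their expression values as FPKM, in 1 table over all libraries. The tools named in the submitters' processing notes are CASAVA and TopHat2 2.0.11, and the builds are mm9 and mm10. The labels name a stranded kit. The quantifier, the annotation and the strand setting remain not given in the sources used here. Of the entries, 11588 are unnamed loci, and 116 lie on random chromosomes of the mm9 kind, so positions are given as mm9 and GRCm38 was used only for RefSeq promoters and GENCODE M21 transcript sequence.

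The fits used log2(FPKM + 1), which compresses differences at low levels. The filter asked for 1 FPKM or more in 2 or more libraries, which 14942 entries met. In limma 3.58.1 (R 4.3.3), 1 linear model with 12 group means covered the 19 libraries. Its prior on the variance had a trend with level, tests were two-sided, and p-values were adjusted by Benjamini-Hochberg. The model has 7 residual degrees of freedom from the 7 groups of 2 libraries, and the 5 groups of 1 library are assumed to vary like these. The culture contrasts weight groups equally. The method was also run on simulated data whose noise followed the variances of the model itself. That run therefore cannot check the assumption about the groups of 1 library. Alternatives changed the pseudocount, filter, scaling, variance prior, groups fitted and libraries kept, or added a replicate block.

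The members and gene lists were chosen with earlier results of these data known. By rule, the text names Rps4x and Rps25, the 8 largest called rises and falls of a comparison, the members with extreme levels or SDs, the paralog pairs and up to 4 called genes of a list. Some genes that this rule or the lists name are not reported here. Levels of further genes were chosen after their values were seen, as was the alternative without the day 5 groups.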

Additional observations from a re-analysis of the deposited data

How the results depend on the processing

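The results of the named genes kept their direction and call under 787 of the 820 gene and setting pairs tried, while 21 lost their call, 10 values without a test moved and 2 reversed. The reversals were the Rps4x estimate in shFendrr, which was 0.17 with libraries rescaled to the same median member and between -0.16 and 0.02 when 1 library was left out (positive only without shFendrr replicate 2). The cause was not tested for any change given here.

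Counts of members called are given without Rps4x and Rps25 in comparisons with the retinoic acid controls. In shNr2f1as, with 0 called higher, the replicate block gave 2, and leaving out 1 library gave 0 to 4. In shSox21os leaving out 1 library gave 0 to 4. In shPou3f3os, with 2 called higher, 1 was called with no filter, 1 with a prior without a trend, 1 with the replicate block and 0 with only the groups compared, and leaving out 1 library gave 0 to 5 higher and 0 to 7 lower. Replicate numbers are a label only. The deviations of same-numbered libraries had a Pearson r of 0.35 for shFendrr, 0.303 for shNr2f1as and -0.019 for shPou3f3os. The replicate block left 0 calls in shFendrr.

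Between the control cultures, 23 were called higher with only the groups compared, and leaving out 1 library gave 24 to 37 higher and 11 to 17 lower. Between the knockdown cultures, 26 were higher and 26 lower after rescaling to the same median member (a centring that removes any shift the members share), and 23 and 23 against day 4 alone, with leave-one-out ranges of 38 to 52 and 12 to 19. Its median was 0.49 against CJ9 groups and 0.04 against day 4. Without the day 5 groups, 48 were higher and 15 lower.

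Leaving out 1 library gave medians of -0.31 to -0.06 in shFendrr, -0.09 to 0.15 in shNr2f1as, -0.06 to 0.18 in shSox21os, -0.25 to -0.02 in shPou3f3os, 0.12 to 0.34 between control cultures and 0.19 to 0.4 between knockdown cultures. In shLhx1os, 22 were past the fold lower and 2 higher after median ratio scaling, 70 and 2 at a fold of 1.2, and 2 and 0 at a fold of 2. The median share was 25.1% with 6 names added, 16.4% without the 10 most abundant members and 25.2% of named entries. Depth is unknown, so counting error at low FPKM was not computed.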

Other observations

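The low values of Rps4x and Rps25 in the retinoic acid controls were set beside other genes, a comparison chosen after their values were seen. Both genes were picked for these low values, and entries were kept by their level in the knockdown libraries, where both are higher, so their place is a description and supports nothing. Among 3310 named entries with at least 20 FPKM in all 5 retinoic acid knockdown libraries, Rps25 (27.7-fold) and Rps4x (20.8-fold) lay farthest below the median of those libraries in control 2. S100a11 (11.2-fold), B2m (9.98-fold) and Acta2 (9.43-fold) came next. In control 1 the distances were 4.41-fold for Rps25, 11.9-fold for Rps4x and 1.53-fold for B2m. In control 2, 14 entries lay more than 4-fold below, and in control 1, 3 entries did.

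Entries of Rps15a pseudogenes differed between the cultures in opposite ways. Rps15a-ps6 was at 3.3 to 7.63 FPKM in the LIF-withdrawal libraries and at most 0.508 FPKM in the retinoic acid libraries. Rps15a-ps4 was at most 0.973 FPKM in the former and at 2.86 to 7.5 FPKM in the retinoic acid libraries, except control 2, where it was listed at 0. These entries can share reads with other copies, and the differences were not tested.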
